A study of Mus musculus with 8 samples.

Results

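Collagen genes, taken as every row of the deposited count table whose symbol has the form Col, a number, a and a number, made up 44 of its 24537 genes. They were grouped by the textbook class of their chain into 11 fibrillar, 8 basement membrane, 9 FACIT (fibril-associated collagens with interrupted helices), 4 transmembrane and 12 other collagens. The libraries came from EpCAM-positive cells sorted from pancreatic tumours of 8 FVB/NJ mice aged 44 to 49 days, with 1 library per tumour. Lifr, the gene of the leukaemia inhibitory factor receptor, was homozygous floxed (f/f) in the 4 KO tumours. The WT label covered 2 genotypes, f/+ in WT replicates 1 and 2 and +/+ in WT replicates 3 and 4. Among the alleles that all 8 mice shared were Pdx1-Cre, which acts in the pancreatic epithelium, homozygous floxed Trp53 and a Cre-dependent luciferase reporter at Rosa26. Fibroblasts, blood vessels and immune cells of the same tumours are not known to use the Pdx1 promoter, so a Cre of this kind is a model of epithelial deletion.

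Collagens are secreted proteins in which chains wind into a long helix, and each chain has its own gene. Fibrillar collagens build the cables of connective tissue, basement membrane collagens the sheet beneath epithelia and vessels, FACITs sit on the surface of fibrils, and transmembrane collagens stay anchored in the cell membrane. In pancreatic tumours, fibrillar collagen of the dense stroma is known to come mainly from fibroblasts and stellate cells, whereas epithelial cells contribute to their own basement membrane.

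The libraries held 14938875 to 22698340 gene counts each, and every pair of them differed by far more than counting error (chi-square of at least 32.4 per degree of freedom). Lifr was higher in the libraries labelled KO, at 150 to 220 CPM (counts per 1000000, TMM-scaled), against 71.8 to 126 CPM in the libraries labelled WT. A count over the whole transcript does not show whether the floxed part was removed, so KO and WT below mean the tumours with those labels. The sorted fractions were not uniform. Over all genes tested, 11.1% were called higher and 10.8% lower in tumours labelled KO (edgeR, adjusted p under 0.05), the shares beside which the marker counts here stand. Epcam, the antigen of the sort, averaged 421 ± 57.7 CPM in tumours labelled KO and 775 ± 96.5 CPM in those labelled WT (SD, n = 4 each). Of 20 tested epithelial markers, 15 were lower and 0 higher in tumours labelled KO, with a summed level of 3959 to 5556 CPM, against 7380 to 10016 CPM in tumours labelled WT. Of 16 macrophage markers 14 were higher and 0 lower, with sums of 22806 to 29793 CPM in tumours labelled KO and 8611 to 15836 CPM in tumours labelled WT. The summed level of 13 acinar markers, digestive enzymes and their transcription factors, ranged from 1797 to 39957 CPM in tumours labelled KO and from 421 to 8319 CPM in tumours labelled WT, with 0 called. Of 10 endothelial markers 1 was higher and 0 lower. Of 7 mesothelial markers 0 were higher and 2 lower, Msln and Krt19, the second of which is also an epithelial marker. The other mesothelial markers, Upk3b, Wt1, Gpm6a, Lrrn4 and Upk1b, were not called (log2 fold changes, KO minus WT, −0.05, −0.12, 0.009, −0.34 and −0.58). In such bulk libraries, fewer cells of a type and less RNA per cell cannot be told apart.

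Collagen transcripts spanned a wide range of levels. Of the 44 genes, 8 had a mean of at least 10 FPKM (reads per kilobase of transcript and per 1000000 reads, as deposited) over the 8 tumours and 21 a mean of at least 1 FPKM. Col9a1, a chain of the cartilage FACIT collagen IX, had 0 counts in every tumour. The highest levels per length were those of Col3a1, the fibrillar chain of pliable tissue, at 93.5 ± 71.4 FPKM in tumours labelled KO and 38.5 ± 25.3 FPKM in tumours labelled WT (SD, n = 4 each). Col18a1, whose product is a basement membrane collagen with heparan sulfate chains and is the source of endostatin, stood at 36.4 ± 14.4 FPKM in tumours labelled KO and 94.8 ± 11.9 FPKM in tumours labelled WT. Col1a1 and Col1a2, the chains of collagen I, stood at 46.4 ± 33.7 and 42.6 ± 30.3 FPKM in tumours labelled KO, against 20.03 ± 12.3 and 21.7 ± 13.5 FPKM in tumours labelled WT (SD, n = 4 each). By group means Col3a1 came first in KO and Col18a1 first in WT. The KO mean of Col3a1 rests on KO replicate 2 (195 FPKM) and was 59.7 ± 28.2 FPKM without it (SD, n = 3). In KO replicate 4 Col18a1 (57.5 FPKM) lay above Col3a1 (29.1 FPKM). Col1a1 and Col1a2 were measured in the same tumours, where their FPKM ratio averaged 1.08 ± 0.05 in KO and 0.98 ± 0.22 in WT (SD, n = 4 each). Whether these chains differed within a label was not tested.

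Between KO and WT labels, 35 of the 44 collagen genes had enough counts to be tested and 3 were called at an adjusted p under 0.05 (edgeR quasi-likelihood test, Benjamini-Hochberg adjustment over 14728 genes). This was 8.57% of the tested members, beside 21.8% of all genes tested. Col18a1 and Col11a2 were lower and Col28a1 was higher in tumours labelled KO. An unadjusted p under 0.05 was reached by 9 members, 25.7%, beside 36% of all genes. The median log2 fold change, KO minus WT, was 0.039 over the tested members and 0.011 over all genes tested. The KO and WT tumours did not overlap in CPM for 3 members, the same 3 genes, which is 8.57% of the tested members beside 25.5% of all genes. DESeq2 called 7 members, beside 28.3% of all genes, adding Col6a3 and Col15a1 as higher and Col27a1 and Col7a1 as lower.

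**Figure D1:**
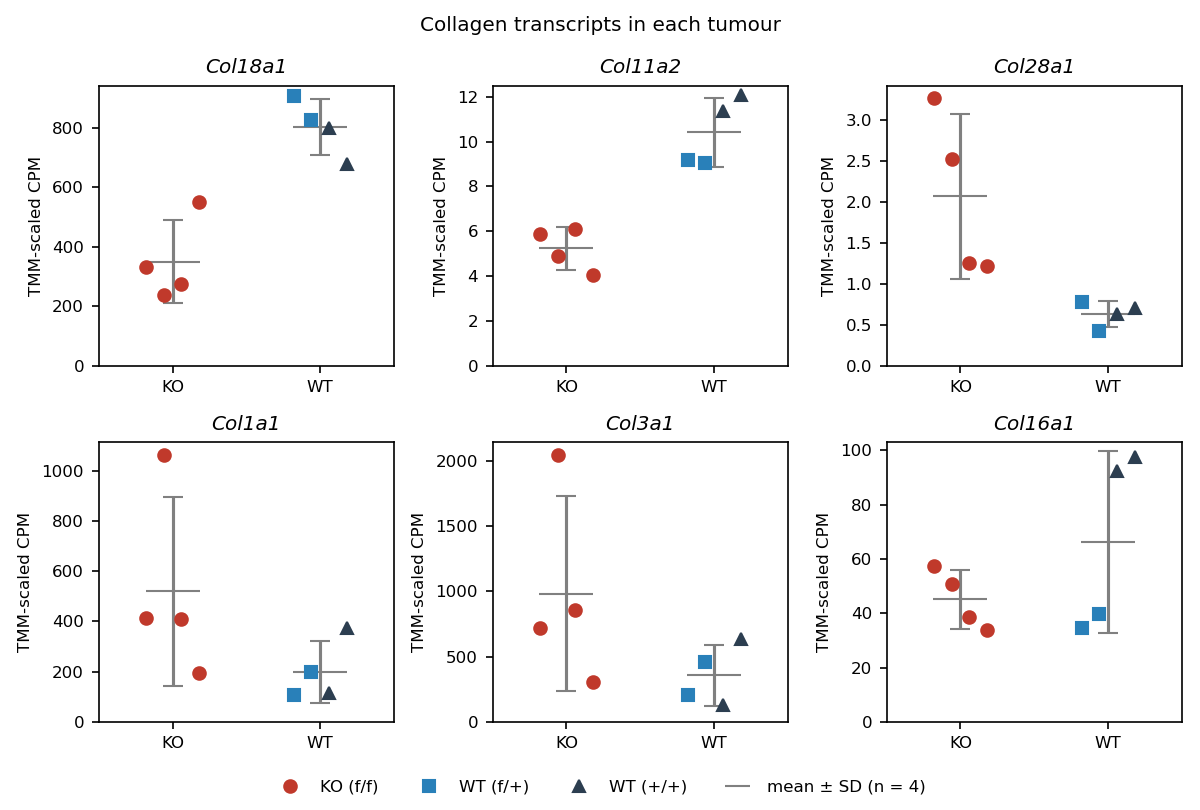
TMM-scaled CPM of 6 collagen genes in each tumour, with KO tumours (circles) left of WT tumours (squares for f/+, triangles for +/+) and horizontal bars with whiskers for the mean ± SD of 4 tumours. Col18a1, Col11a2 and Col28a1 separate the labels, Col1a1 and Col3a1 overlap, and for Col16a1 the f/+ tumours lie with the KO tumours and below the +/+ tumours.

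The 250 bases before the RefSeq start (GRCm38.p6) are shown for the 3 called genes, which carry the comparison, and for Col3a1, which had the highest mean FPKM of the collagens in KO tumours. Capitals mark motifs on either strand. The CCAAT box was searched as CCAAT and, for the other strand, as ATTGG. The GC box was searched as GGGCGG and, for the other strand, as CCGCCC. The TATA box was searched as TATAAA and, for the other strand, as TTTATA. The motifs do not overlap one another here. The Col18a1 stretch is chr10:77166549-77166780, minus strand, and stops where the annotated first exon (GENCODE M21) begins. The Col11a2 stretch is chr17:34038888-34039137, plus strand. Those of Col28a1 and Col3a1 are chr6:8192618-8192867, minus strand, and chr1:45311288-45311537, plus strand.
Col18a1: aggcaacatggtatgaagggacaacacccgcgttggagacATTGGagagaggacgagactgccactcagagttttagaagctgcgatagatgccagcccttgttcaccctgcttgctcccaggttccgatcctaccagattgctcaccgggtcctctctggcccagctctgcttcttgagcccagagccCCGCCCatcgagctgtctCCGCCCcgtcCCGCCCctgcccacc
Col11a2: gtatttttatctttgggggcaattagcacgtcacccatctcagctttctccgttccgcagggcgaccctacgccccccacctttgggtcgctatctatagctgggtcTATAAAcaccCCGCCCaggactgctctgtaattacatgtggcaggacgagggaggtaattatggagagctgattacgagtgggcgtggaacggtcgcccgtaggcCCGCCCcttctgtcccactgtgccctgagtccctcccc
Col28a1: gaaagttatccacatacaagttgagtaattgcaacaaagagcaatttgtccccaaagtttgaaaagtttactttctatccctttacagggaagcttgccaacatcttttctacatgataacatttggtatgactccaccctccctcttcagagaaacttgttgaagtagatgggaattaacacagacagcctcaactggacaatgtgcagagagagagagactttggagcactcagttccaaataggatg
Col3a1: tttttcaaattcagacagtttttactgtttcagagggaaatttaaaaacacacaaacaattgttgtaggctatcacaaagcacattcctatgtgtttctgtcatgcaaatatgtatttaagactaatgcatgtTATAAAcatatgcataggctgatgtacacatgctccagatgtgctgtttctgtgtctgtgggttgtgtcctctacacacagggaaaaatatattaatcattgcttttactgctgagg
The Col18a1 window shown held 3 GC boxes, 61, 43 and 33 bases before the start, and a CCAAT box on the other strand 210 bases before it. A second Col18a1 window, before a start inside the gene (chr10:77113706-77113955, minus strand), held none of these motifs and is not printed. Col11a2 had GC boxes 133 and 38 bases and a TATAAA 143 bases before its start, and Col3a1 a TATAAA 117 bases before its start. Col28a1 held none of these letters in this window. Over the 35 collagen genes matched by symbol (38 windows), a GC box was in 22 windows, 57.9%, beside 32.7% of 32851 RefSeq windows of the same length. A CCAAT box was in 13 collagen windows, 34.2%, beside 33.8% of all, and a TATA box in 5, 13.2%, beside 12.4% of all. These matches describe the letters and do not show that a factor binds there.

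Among the basement membrane collagens, Col18a1 was lower in tumours labelled KO while the chains of collagen IV were not called. Col18a1 (chr10:77052179-77166530, minus strand) had 333, 239, 276 and 550 CPM in KO replicates 1 to 4, against 905 and 825 CPM in the f/+ tumours and 799 and 678 CPM in the +/+ tumours. Every KO tumour lay below every WT tumour, with KO replicate 4 nearest to them. The means were 349 ± 139 CPM in KO and 802 ± 94.0 CPM in WT (SD, n = 4 each), a 2.30-fold lower level and a log2 fold change of −1.20 ± 0.25 (SE; 95% interval −1.77 to −0.63; edgeR adjusted p = 0.0125). The call held without any 1 of the 8 tumours (log2 fold change −1.52 to −1.05, highest edgeR adjusted p = 0.0378). It was lost with only the +/+ tumours as controls (−1.08, edgeR adjusted p = 0.084), without KO replicate 1 and WT replicate 2, the tumours of each label highest in acinar markers, left out after seeing the data (−1.16, edgeR adjusted p = 0.063), and under scaling of libraries by the epithelial markers (−0.40, edgeR adjusted p = 0.107). The epithelial marker sums moved in the same direction across the labels, and their part in the Col18a1 difference was not tested. On the opposite strand, the annotated gene Slc19a1, a folate carrier, overlaps the end of Col18a1, though its counted transcript does not reach it. Slc19a1 averaged 16.7 ± 3.70 CPM in KO and 15.02 ± 1.54 CPM in WT tumours (SD, n = 4 each, not called).

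Col4a1 and Col4a2 code for the chains of the collagen IV network found in nearly all basement membranes. They lie head to head on chromosome 8, and their annotated transcripts share 22 bases. Col4a1 (chr8:11198423-11312826, minus strand) had 278, 331, 215 and 263 CPM in KO tumours, against 270 and 330 CPM in f/+ and 199 and 321 CPM in +/+ tumours. Col4a2 (chr8:11312805-11449287, plus strand) had 166, 176, 120 and 159 CPM in KO tumours, against 157 and 185 CPM in f/+ and 123 and 197 CPM in +/+ tumours. The groups overlapped fully for both. The log2 fold changes were −0.04 (95% interval −0.46 to 0.37) for Col4a1 and −0.09 (−0.47 to 0.29) for Col4a2, so a change as large as that of Col18a1 lay outside both intervals. With libraries scaled to the epithelial list these became 0.82 and 0.76. The ratio of Col4a1 to Col4a2 in FPKM was 1.61 to 1.83 in KO tumours and 1.58 to 1.74 in WT tumours. The ratio of Col18a1 to Col4a1 in FPKM was 0.945 to 2.74 in KO tumours and 2.77 to 5.27 in WT tumours, 2 ranges that did not overlap (exact two-sided permutation p = 0.0286, the smallest that 4 against 4 allows, and 0.0762 adjusted over 8 ratios, which misses the threshold). The ratios were chosen after the values were seen.

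The other collagen IV chains, which build the specialised basement membranes of kidney and some epithelia, were lower in level. Of these 4 chains 0 were called, beside 21.8% of all genes tested. Col4a5 and Col4a6 lie head to head on chromosome X with 1342 bases between them. Col4a5 had 21.3, 26.1, 26.3 and 16.4 CPM in KO tumours, against 17.3 and 38.8 CPM in f/+ and 21.2 and 27.3 CPM in +/+ tumours. Col4a6 had 7.03, 8.39, 8.61 and 3.75 CPM in KO tumours, against 4.897 and 10.5 CPM in f/+ and 4.26 and 11.3 CPM in +/+ tumours. KO replicate 4 was the lowest of the 8 tumours for both, and the groups overlapped. Col4a3 and Col4a4, with 71 bases between their starts on chromosome 1, were near the limit of detection, with at most 30 and 19 counts. Col4a3 had 0.495, 0.614, 0.417 and 0.468 CPM in KO tumours, against 1.04 and 1.40 CPM in f/+ and 0.672 and 0.412 CPM in +/+ tumours. Col4a4 had 0.941, 0.545, 0.764 and 0.234 CPM in KO tumours, against 0.417 and 0.885 CPM in f/+ and 0.0448 and 0.530 CPM in +/+ tumours. Col15a1, a proteoglycan collagen related to Col18a1 and named here after its values were seen, ran the other way. It had 52.7, 66.3, 42.3 and 26.9 CPM in KO tumours, against 21.0 and 22.5 CPM in f/+ and 19.2 and 38.0 CPM in +/+ tumours (log2 fold change 0.90 ± 0.30 SE; edgeR adjusted p = 0.065, DESeq2 adjusted p = 0.017). KO replicate 4 lay below WT replicate 4, and edgeR called Col15a1 without either of these tumours.

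**Figure D2:**
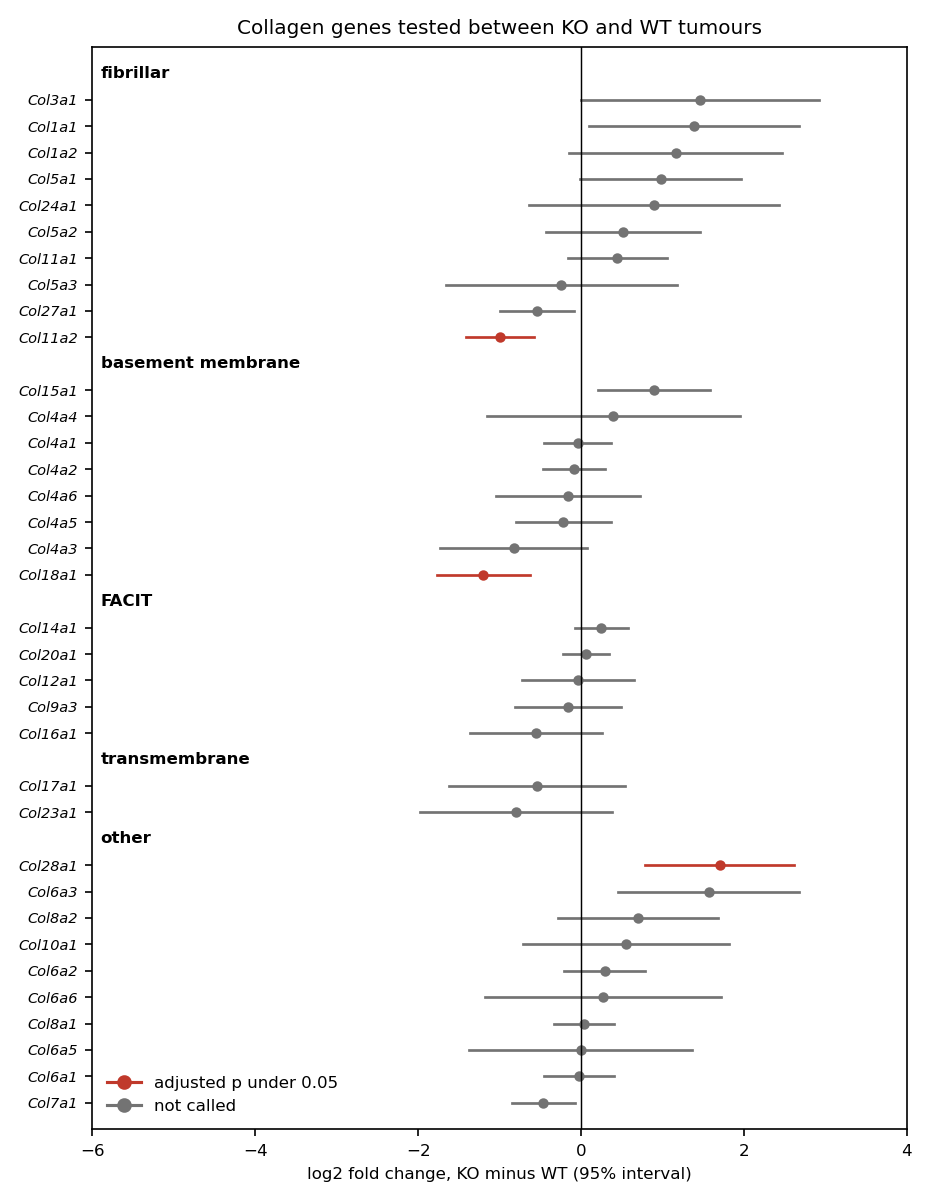
Log2 fold changes, KO minus WT, of the 35 tested collagen genes by class (points) with 95% intervals (lines), red where the edgeR adjusted p was under 0.05. The 3 called genes lie in 3 classes, and the intervals of Col4a1, Col4a2, Col6a1 and Col14a1 span 0 and are narrower than those of Col3a1, Col1a1 and Col1a2.

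In the fibrillar class, 10 of 11 genes were tested, 7 with a log2 fold change above 0 and 3 below. Col11a2 alone was called, 10% of the tested genes of the class, beside 21.8% of all genes tested. Col11a2 is a chain of collagen XI, which is best known from cartilage fibrils. It (chr17:34039138-34066684, plus strand) had 5.89, 4.91, 6.11 and 4.03 CPM in KO tumours, against 9.17 and 9.03 CPM in f/+ and 11.4 and 12.1 CPM in +/+ tumours. The groups did not overlap, and the f/+ tumours lay between the KO and the +/+ tumours. The means were 5.23 ± 0.96 CPM in KO and 10.4 ± 1.55 CPM in WT (SD, n = 4 each), with a log2 fold change of −0.99 ± 0.18 (SE; 95% interval −1.41 to −0.58; edgeR adjusted p = 0.0083). The call held without any 1 tumour (highest edgeR adjusted p = 0.0296) and was lost with only f/+ controls (−0.80, edgeR adjusted p = 0.059) and under the epithelial marker scaling (−0.15, edgeR adjusted p = 0.628). The count and FPKM tables kept different transcripts for Col11a2.

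The abundant fibrillar chains varied widely among tumours and were not called. Col3a1 had 721, 2045, 857 and 307 CPM in KO tumours, against 203 and 456 CPM in f/+ and 128 and 638 CPM in +/+ tumours. Its log2 fold change was 1.46 ± 0.64 (SE; 95% interval 0.0010 to 2.93; edgeR adjusted p = 0.139). Col1a1 had 414, 1063, 411 and 195 CPM in KO tumours, against 108 and 200 CPM in f/+ and 114 and 373 CPM in +/+ tumours (1.39 ± 0.57 SE; edgeR adjusted p = 0.114). Col1a2 had 324, 851, 332 and 171 CPM in KO tumours, against 94.3 and 262 CPM in f/+ and 85.4 and 309 CPM in +/+ tumours (1.16 ± 0.57 SE; edgeR adjusted p = 0.182). For all 3 genes, KO replicate 2 was the highest of the 8 tumours, KO replicate 4 lay among the WT tumours, and WT replicate 4 was the highest of its group. Without KO replicate 2 the log2 fold changes of Col3a1, Col1a1 and Col1a2 dropped to 0.82, 0.77 and 0.56, and without WT replicate 4 that of Col1a1 was 1.89 and called (edgeR adjusted p = 0.0490). DESeq2 gave the same side of the threshold for Col3a1 and Col1a1 (adjusted p = 0.121 each).

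The chains of collagen I kept close to one another. The ratio of Col1a1 to Col1a2 in FPKM was 0.9998 to 1.12 in KO tumours and 0.673 to 1.18 in WT tumours, while the level of each gene varied several-fold. Col5a2, a chain of collagen V that helps to start collagen I fibrils, lies 24624 bases from Col3a1 on the opposite strand. Col5a2 had 89.4, 167, 80.8 and 51.4 CPM in KO tumours, against 41.2 and 72.7 CPM in f/+ and 44.1 and 113 CPM in +/+ tumours, again highest in KO replicate 2 (log2 fold change 0.52, edgeR adjusted p = 0.410). Col5a1 and Col5a3, the other collagen V chains, had log2 fold changes of 0.98 and −0.24. Col27a1, Col24a1 and Col11a1 had values of −0.54, 0.90 and 0.45. Col2a1, the main cartilage collagen, was near the limit of detection, with at most 31 counts, and was not tested between KO and WT.

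Of 21 tested fibroblast and stellate cell markers, 3 were higher and 1 lower in tumours labelled KO, beside 11.1% and 10.8% of all genes, with a median log2 fold change of 0.64. Their summed level was 499 to 853 CPM in KO tumours and 564 to 677 CPM in WT tumours, which overlap. Gsn, the marker called lower, made up a large part of these sums, at 206 to 254 CPM in KO and 258 to 373 CPM in WT tumours. The mean log2 CPM of the list, which weighs each marker alike, averaged 3.90 in KO and 3.35 in WT tumours and also overlapped. None of the 21 was at 0 in any tumour, and Tcf21 was not tested, with at most 12 counts. The called members were Dpt, a dermatopontin that binds collagen fibrils (9.98 ± 6.33 CPM in KO, 1.26 ± 0.93 CPM in WT), Pi16 (31.3 ± 9.97 in KO, 13.2 ± 2.91 in WT), Fap (3.14 ± 0.80 in KO, 1.41 ± 0.43 in WT) and, lower, Gsn (223 ± 21.6 in KO, 311 ± 49.7 in WT; SD, n = 4 each). Ordered by the mean log2 CPM of the list, the tumours ran from KO replicate 2 (4.55) through KO replicate 1 (3.95), KO replicate 3 (3.80), WT replicate 4 (3.77), WT replicate 2 (3.43), KO replicate 4 (3.32) and WT replicate 1 (3.17) to WT replicate 3 (3.03). Ordered by the mean of Col1a1, Col1a2 and Col3a1, the tumours ran the same way except that KO replicates 1 and 3 changed places. Single markers departed from this order, such as Pi16, highest in KO replicate 4 (41.2 CPM). The part of these markers in the fibrillar differences was not tested.

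**Figure D3:**
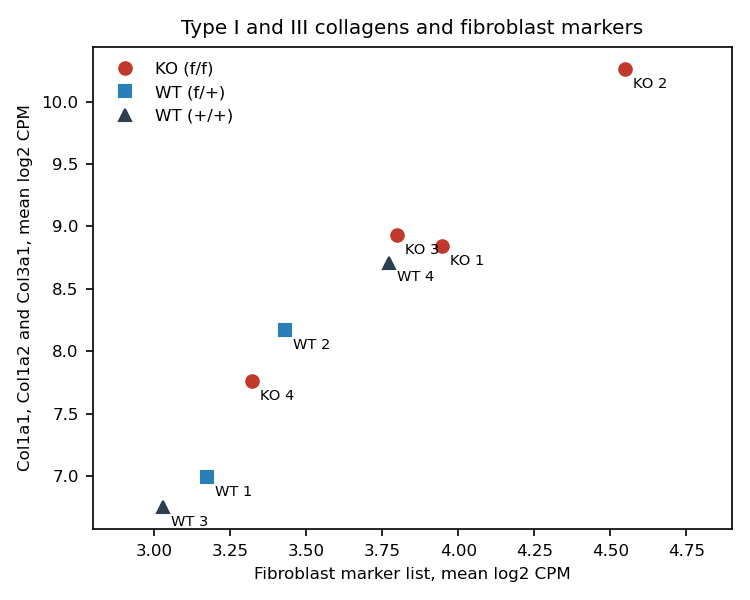
Mean log2 CPM of Col1a1, Col1a2 and Col3a1 (vertical axis) against that of the fibroblast marker list (horizontal axis), 1 point per tumour, with KO as circles, f/+ as squares and +/+ as triangles. KO replicate 2 lies highest on both axes, WT replicate 3 lowest, and KO replicate 4 lies between WT replicates 1 and 2.

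Among collagens of other kinds, Col28a1 was higher in tumours labelled KO. It codes for a collagen with von Willebrand factor A domains that is known from the nervous system, and it was near the lower limit of the test. Col28a1 (chr6:7997808-8192617, minus strand) had 66, 37, 18 and 26 counts in KO tumours, against 15 and 9 counts in f/+ and 14 and 12 counts in +/+ tumours. In CPM these were 3.27, 2.52, 1.25 and 1.22 in KO tumours, against 0.781 and 0.419 in f/+ and 0.628 and 0.707 in +/+ tumours. The groups did not overlap, and KO replicates 1 and 2 stood above the other KO tumours. The means were 2.06 ± 1.01 CPM in KO and 0.634 ± 0.156 CPM in WT (SD, n = 4 each), a 3.25-fold difference (log2 fold change 1.70 ± 0.40 SE; 95% interval 0.79 to 2.62; edgeR adjusted p = 0.0192). The call was lost without KO replicate 1, without KO replicate 2 and without WT replicate 3 (log2 fold change 1.37 to 1.70, highest edgeR adjusted p = 0.0571). It was also lost with only f/+ controls (1.78, edgeR adjusted p = 0.095), with only +/+ controls (1.63, edgeR adjusted p = 0.109) and in limma on log2 of FPKM plus 1 or plus 0.1 (adjusted p = 0.077 and 0.054). Without the tumours highest in fibroblast markers (KO replicate 2 and WT replicate 4) it was 1.65 (edgeR adjusted p = 0.086), and without those highest in acinar markers 1.23 (edgeR adjusted p = 0.089), both left out after seeing the data. Of 5 tested Schwann cell markers, 0 were higher and 2, S100b and Erbb3, lower (beside 10.8% of all genes), with sums of 57.6 to 64.5 CPM in KO and 78.4 to 141 CPM in WT tumours, while Sox10 and Foxd3 had at most 2 and 3 counts.

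Collagen VI forms the beaded filaments of connective tissue from chains of several genes. Col6a1 had 141, 128, 128 and 112 CPM in KO tumours, against 145 and 106 CPM in f/+ and 92.9 and 175 CPM in +/+ tumours, and a log2 fold change of −0.03 (95% interval −0.46 to 0.40). Its neighbour Col6a2, 85387 bases away on chromosome 10, had 90.9, 82.1, 72.3 and 61.5 CPM in KO tumours, against 69.5 and 50.9 CPM in f/+ and 43.3 and 87.1 CPM in +/+ tumours (log2 fold change 0.29). The groups overlapped for both, although the ratio of Col6a1 to Col6a2 in FPKM was 1.46 to 1.72 in KO tumours and 1.89 to 2.02 in WT tumours (exact two-sided permutation p = 0.0286, 0.0762 adjusted over 8 ratios). Col6a3, named here after its values were seen, had 36.8, 107, 39.1 and 23.9 CPM in KO tumours, against 26.1 and 18.0 CPM in f/+ and 9.10 and 16.3 CPM in +/+ tumours. Only KO replicate 4 lay within the WT range, and the gene fell just outside the threshold (log2 fold change 1.57 ± 0.49 SE; edgeR adjusted p = 0.0505, DESeq2 adjusted p = 0.0041). Without KO replicate 4 edgeR called Col6a3. The ratio of Col6a3 to Col6a1 in FPKM was 0.0891 to 0.357 in KO tumours and 0.0403 to 0.0768 in WT tumours, which do not overlap. Its exact two-sided permutation p was 0.0286, and 0.0762 adjusted over the 8 ratios. The count and FPKM tables kept different transcripts for Col6a3. The related genes Col6a4, Col6a5 and Col6a6 lie in a row on chromosome 9, with 29674 and 27984 bases between them. Col6a5 had 12.3, 13.6, 17.3 and 2.81 CPM in KO tumours, against 9.17 and 14.2 CPM in f/+ and 3.36 and 19.3 CPM in +/+ tumours. Col6a6 had 3.12, 3.75, 4.10 and 0.655 CPM in KO tumours, against 0.729 and 4.70 CPM in f/+ and 1.70 and 2.42 CPM in +/+ tumours, and Col6a4 at most 6 counts in any tumour. Both Col6a5 and Col6a6 were lowest of the KO tumours in replicate 4 and highest in replicate 3. The means of the fibroblast, mesothelial and acinar markers were also lowest of the KO tumours in replicate 4. Among the KO tumours, the mean of the fibroblast markers was highest in replicate 2, that of the acinar markers in replicate 1 and that of the mesothelial markers in replicate 3. A link of these genes to any of the lists was not tested.

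Col7a1, the collagen of anchoring fibrils beneath epithelia, had 86.1, 47.1, 64.7 and 74.6 CPM in KO tumours, against 97.9 and 82.3 CPM in f/+ and 90.3 and 105 CPM in +/+ tumours. KO replicate 1 alone lay within the WT range (log2 fold change −0.46 ± 0.17 SE; edgeR adjusted p = 0.0887). Col8a1, Col8a2 and Col10a1, short-chain collagens, had log2 fold changes of 0.04, 0.70 and 0.55 and were not called.

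No FACIT was called between KO and WT among 5 tested, by edgeR or by DESeq2, and none had an unadjusted edgeR p under 0.05. Over all genes tested, edgeR called 21.8% and DESeq2 28.3%, and 36% had an unadjusted edgeR p under 0.05. With 5 genes tested, the absence of calls does not set the class apart. Col14a1, which binds the surface of collagen I fibrils, had 87.8, 134, 116 and 100 CPM in KO tumours, against 93.1 and 97.7 CPM in f/+ and 74.8 and 102 CPM in +/+ tumours (log2 fold change 0.25, 95% interval −0.08 to 0.58). Col12a1, of similar function, had 82.7, 94.8, 41.4 and 66.1 CPM in KO tumours, against 79.8 and 46.2 CPM in f/+ and 60.6 and 106 CPM in +/+ tumours (−0.04, −0.73 to 0.65). KO replicate 2 was the highest KO tumour for both. It lay above the WT range for Col14a1, as did KO replicate 3, and within it for Col12a1. Col20a1 was the steadiest, at 6.35 ± 0.158 CPM in KO and 6.08 ± 0.281 CPM in WT tumours (SD, n = 4 each). Col9a1 and Col19a1, 4944 bases apart on chromosome 1, had 0 and at most 4 counts. Of the transmembrane collagens, Col23a1 had 1.54, 2.52, 1.25 and 0.562 CPM in KO tumours, against 1.72 and 1.304 CPM in f/+ and 4.62 and 2.47 CPM in +/+ tumours (log2 fold change −0.80, not called). Col17a1, a hemidesmosome protein of epithelial cells, had 0.693, 0.341, 0.486 and 1.83 CPM in KO tumours, against 1.35 and 1.12 CPM in f/+ and 1.26 and 1.296 CPM in +/+ tumours. Col17a1 was near the lower limit of the test, with 5 to 39 counts per tumour. With all tumours it was not called (log2 fold change −0.54, edgeR adjusted p = 0.448). The highest value of Col17a1 was that of KO replicate 4, and without it the log2 fold change was −1.28 and called (edgeR adjusted p = 0.0301). Col13a1 had at most 8 counts. The 9 genes not tested had at most 31 counts in any tumour.

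Taken by class, the share of all gene counts assigned to basement membrane collagens was lower in every KO tumour than in any WT tumour when Col18a1 was counted in. It was 0.0764%, 0.0803%, 0.0665% and 0.0977% in KO replicates 1 to 4, against 0.145% and 0.156% in f/+ and 0.122% and 0.133% in +/+ tumours. The other 7 basement membrane collagens took 0.0399% to 0.0577% in KO and 0.0386% to 0.0650% in WT tumours, which overlap. The 6 collagen IV genes took 0.0358% to 0.0514% in KO and 0.0365% to 0.0625% in WT tumours, which overlap too. Fibrillar collagens took 0.169%, 0.425%, 0.183% and 0.0880% in KO tumours, against 0.0722% and 0.133% in f/+ and 0.0619% and 0.201% in +/+ tumours. The fibrillar shares overlapped, with KO replicate 4 below WT replicates 2 and 4. All collagens together took 0.236% to 0.573% in KO and 0.238% to 0.415% in WT tumours.

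**Figure D4:**
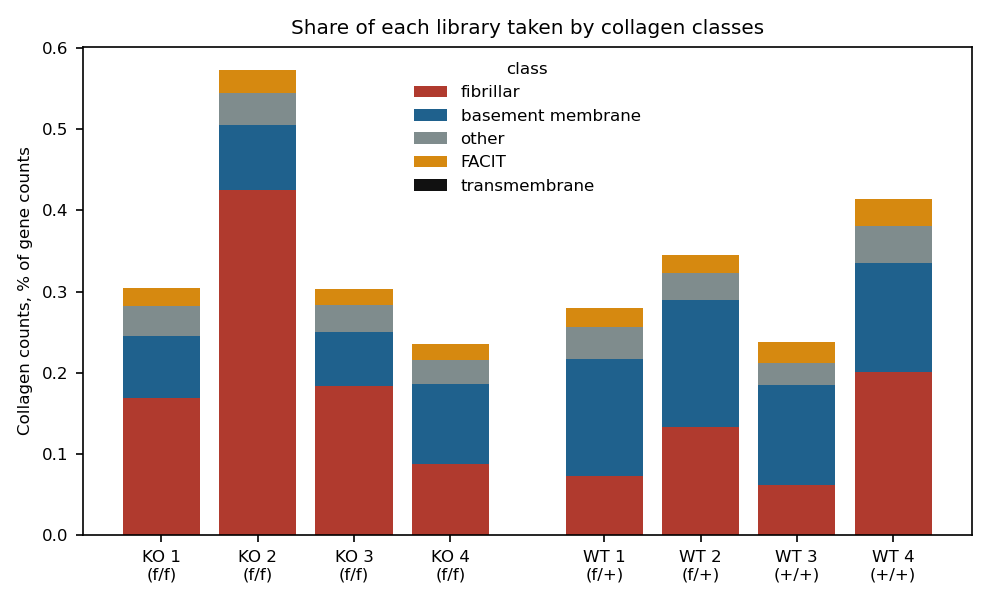
Counts of each collagen class as a percent of all gene counts (stacked bars from 0), KO tumours left and WT tumours right with the Lifr genotype in brackets; the transmembrane share is too small to see. The fibrillar part ranges from 0.0880% to 0.425% in KO and from 0.0619% to 0.201% in WT tumours, and the basement membrane part, Col18a1 included, is smaller in every KO tumour.

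The control genotypes were compared next, in 1 fit of the 3 Lifr genotypes with 37 collagen genes tested. That fit takes the spread between tumours from the KO tumours as well as the controls. Between f/+ and +/+ tumours, 2 each, edgeR called 0 of 37 members, beside 0.00654% of 15284 genes. An unadjusted p under 0.05 was reached by 3 members, 8.11%, beside 5.12% of all genes. DESeq2 called 1 member, Col16a1, beside 0.354% of genes. Col16a1, a FACIT of fibroblasts and smooth muscle, had 34.7 and 39.8 CPM in f/+ tumours, against 92.3 and 97.6 CPM in +/+ tumours, a 2.55-fold lower level in f/+ (log2 fold change −1.35 ± 0.24 SE; edgeR adjusted p = 0.669; DESeq2 adjusted p = 0.00076). The KO tumours, at 57.6, 50.7, 38.7 and 33.8 CPM, overlapped the f/+ tumours and lay below the +/+ tumours. Col4a3 and Col2a1 were the other members with an unadjusted p under 0.05. Col2a1 had 0.0991, 0.273, 0.555 and 0.281 CPM in KO tumours, against 1.61 and 0.838 CPM in f/+ and 0.493 and 0.236 CPM in +/+ tumours. In simulated counts, a 2-fold change was called for 6 of 100 raised and 4 of 100 lowered genes between f/+ and +/+, so differences of this size were rarely detectable.

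KO tumours were also set against each control genotype, comparisons that share the KO libraries. Against f/+, 2 of 37 members were called, 5.41%, beside 13.3% of all genes (6.73% higher and 6.6% lower): Col18a1 (log2 fold change −1.31 ± 0.30 SE; edgeR adjusted p = 0.0327) and Col11a2 (−0.80 ± 0.20; 0.0393). Against +/+, 2 of 37 were called, 5.41%, beside 6.79% of all genes (3.13% higher and 3.66% lower): Col11a2 (−1.16 ± 0.20 SE; edgeR adjusted p = 0.0316) and Col16a1 (−1.07 ± 0.20; 0.0335). Col18a1 was at −1.08 ± 0.30 against +/+ (edgeR adjusted p = 0.0710), and Col16a1 at 0.28 ± 0.21 against f/+ (edgeR adjusted p = 0.412). The Col18a1 difference between f/+ and +/+ was 0.23 (95% interval −0.62 to 1.07), not called. Without any 1 tumour, between 0 and 3 members were called in either comparison, and each of the 4 calls was lost in most omissions. Col18a1 against f/+ lost its call without KO replicate 1, 2 or 3 or either f/+ tumour (highest edgeR adjusted p = 0.133), and Col11a2 against f/+ kept it only without KO replicate 4 (highest edgeR adjusted p = 0.168). Col11a2 and Col16a1 against +/+ lost theirs without KO replicate 1, 2 or 3 or either +/+ tumour (highest edgeR adjusted p = 0.259 and 0.264). Col28a1 was not called against f/+ (1.78, edgeR adjusted p = 0.0726) or +/+ (1.63, edgeR adjusted p = 0.107).

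Among genes that make, process and sense collagen, most did not pass the test. Of 22 tested genes of collagen synthesis and folding, 2 were higher (9.09%) and 4 lower (18.2%) in tumours labelled KO and 16 did not pass, beside 11.1% higher and 10.8% lower over all genes. The median was a log2 fold change of 0.13, beside 0.011 over all genes. Plod1, a lysyl hydroxylase, was at 225 ± 26.1 CPM in KO and 123 ± 35.7 CPM in WT tumours (edgeR adjusted p = 0.0187). P4ha2, a prolyl hydroxylase subunit, was at 22.9 ± 4.57 CPM in KO and 38.6 ± 2.89 CPM in WT tumours (edgeR adjusted p = 0.0082), and P3h4 and Creb3l1, a transcription factor of the secretory pathway, were lower with log2 fold changes of −0.56 and −0.79. Serpinh1, the collagen chaperone HSP47, was at 176 ± 60.7 CPM in KO and 162 ± 39.9 CPM in WT tumours and was not called; it was named outside the rule.

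Of 12 genes of procollagen cleavage and cross-linking, 0 were higher and 3 lower (25%, beside 10.8% of all genes), and 9 did not pass. Bmp1, a procollagen C-proteinase, was at 138 ± 20.4 CPM in KO and 256 ± 62.0 CPM in WT tumours (log2 fold change −0.89 ± 0.19 SE; edgeR adjusted p = 0.0133). Its relative Tll1 was at 1.89 ± 0.99 CPM in KO and 8.35 ± 3.47 CPM in WT tumours (−2.14 ± 0.45), and Adamts3, a procollagen N-proteinase, at 1.80 ± 0.42 CPM in KO and 3.15 ± 0.30 CPM in WT tumours (SD, n = 4 each). The median of the list was −0.37.

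Among 21 collagen-binding proteoglycans and glycoproteins, 4 were higher (19.0%) and 1 lower (4.76%), beside 11.1% and 10.8% of all genes, with a median of 0.64. Dcn, Lum, Dpt, Postn and Fbln1 are in the fibroblast list as well. Dpt and Ogn, small matrix proteins that bind fibrils, were higher (Ogn at 7.76 ± 6.15 CPM in KO and 1.87 ± 0.69 CPM in WT tumours), as was Nid2, a nidogen that links collagen IV to laminin (48.1 ± 5.07 CPM in KO, 34.1 ± 5.79 CPM in WT). Fbln2, a fibulin of basement membranes and elastic fibres, was lower, at 550 ± 82.2 CPM in KO and 1065 ± 247 CPM in WT tumours (log2 fold change −0.95 ± 0.18 SE; edgeR adjusted p = 0.0098). Of 11 collagen receptors, 1 was higher (9.09%) and 3 lower (27.3%), beside the same 11.1% and 10.8%. Ddr1, the collagen-activated receptor kinase of epithelia, was at 121 ± 9.37 CPM in KO and 194 ± 20.8 CPM in WT tumours (−0.68 ± 0.10; edgeR adjusted p = 0.0044). Itga2, a subunit of a collagen-binding integrin, was at 121 ± 33.2 CPM in KO and 200 ± 10.5 CPM in WT tumours, and Adgrg1 was lower by a log2 fold change of −0.56. Mrc1, a mannose receptor that is also in the macrophage list, was higher, at 2618 ± 579 CPM in KO and 1438 ± 260 CPM in WT tumours. Of 11 genes of collagen degradation, 3 were higher (27.3%) and 2 lower (18.2%), beside 11.1% and 10.8% of all genes. Pepd, Timp2 and Fap were higher. Timp3, a matrix-bound inhibitor of metalloproteinases, was lower (75.8 ± 14.1 CPM in KO, 112 ± 12.1 CPM in WT). The metalloproteinase Mmp14, named outside the rule, was lower too (334 ± 65.8 CPM in KO, 492 ± 82.3 CPM in WT, SD, n = 4 each, edgeR adjusted p = 0.0444). The epithelial and macrophage markers given above moved across the same tumours, and their part in these lists was not tested.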

How the data were processed

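RNA of EpCAM-positive cells from 8 tumours was sequenced, 1 library each. Per the submitters' processing notes, FastQC 0.11.2, STAR 2.4.0k, HOMER, edgeR 3.6.8 and the mm10 build were used. Per the file headers, the deposited raw counts are unnormalized exon read counts for 1 RefSeq transcript of each gene, made by HOMER with its plus-strand option. The deposited FPKM values were made by the authors with the same program, and for 10 of the 44 collagen genes they rest on another transcript. Whether libraries were stranded is not given in the sources used here, so reads of overlapping genes may not be separated. Tumours were numbered as listed, so equal numbers pair nothing.

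Counts were tested with edgeR 4.0.16 in R 4.3.3 (glmQLFit and glmQLFTest, TMM scaling, filterByExpr with a minimum count of 10 and a minimum total of 15), 1 fit for KO against WT and 1 for the 3 Lifr genotypes. In simulated counts for KO against WT, 64 of 100 genes raised 2-fold and 49 of 100 lowered 2-fold were called. DESeq2 1.42.0 and limma 3.58.1 (log2 of FPKM plus 1 or 0.1) served as alternatives, with other scalings and filters, single control genotypes and each tumour left out. FPKM gave levels between genes. The p-values of these fits set the difference between groups against the spread between tumours. In the fit of the 3 Lifr genotypes this spread is shared by all 8 tumours. The collagen genes and the 12 other lists were chosen with earlier results of these data known. Named in full were called members, the 3 highest of each class by FPKM, the 3 with the smallest p between control genotypes, neighbours under 200 kb apart, and up to 4 called genes per other list. Upstream sequences are from RefSeq (GRCm38.p6). Protein sequences were not analysed here. An allele carried by all 8 mice is not reported here.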

Additional observations from a re-analysis of the deposited data

How the results depend on the processing

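Depth limits the least abundant chains, and 2 tumours per control genotype limit every comparison between genotypes. Of 689 values of named collagen genes under the alternatives, 575 kept direction and side of the threshold and 49 changed sign. Of the values that kept their sign, 47 lost a call and 18 gained one. A value that changed sign was counted only as such, also where it gained or lost a call. The cause of each change was not tested unless stated. With library totals alone the median of all genes moved to −0.165 (0.011 with TMM), the share of calls that were higher in KO to 22.5% (50.7% with TMM), and 5 collagen genes were called between KO and WT and 4 between KO and f/+. Scaling to the epithelial list, which by construction raises every gene in KO, moved that median to 0.86 and gave 10933 calls over all genes (3216 otherwise). Against WT this scaling called 21 collagen genes, 60% beside 74.2% of all genes, with 21 against f/+ and 12 against +/+. It also turned the KO minus WT values of Col12a1 (0.78), Col16a1 (0.28), Col17a1 (0.21), Col23a1 (0.097), Col4a1 (0.82), Col4a2 (0.76), Col4a3 (0.056), Col4a5 (0.69), Col4a6 (0.73), Col6a1 (0.79), Col6a5 (0.88) and Col7a1 (0.34), of Col11a2 against f/+ (0.14), and of Col2a1 (0.45) and Col4a3 (0.65) against +/+. DESeq2 called 7 collagen genes against WT (20%, beside 28.3% of all genes), 4 against f/+, 4 against +/+ and 1 between f/+ and +/+.

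With fewer tumours, calls over all genes numbered 1926 with only f/+ and 1106 with only +/+ controls, and 1755 to 3241 without any 1 tumour (1755 without KO replicate 2). Only f/+ controls left 1 collagen gene called and turned Col12a1 (0.18), Col16a1 (0.28), Col4a4 (−0.082) and Col6a1 (0.020); only +/+ controls turned Col4a1 (0.065) and Col6a5 (0.025). Without any 1 tumour, 2 to 6 collagen genes were called against WT (6 without KO replicate 4, 5 without WT replicate 4), 0 to 3 against f/+, 0 to 3 against +/+ and 0 between f/+ and +/+. Signs changed there for Col12a1 (−0.20 to 0.20), Col4a1 (−0.18 to 0.057), Col4a2 (−0.21 to 0.016), Col4a5 (−0.37 to 0.040), Col4a6 (−0.36 to 0.078), Col6a1 (−0.16 to 0.15), Col6a5 (−0.31 to 0.36) and Col6a6 (−0.029 to 0.84), and against +/+ for Col2a1 (−0.77 to 0.31) and Col4a3 (−0.43 to 0.27). Chosen after seeing the data, leaving out the tumour of each group highest in fibroblast markers (KO replicate 2, WT replicate 4) gave 1828 calls over all genes, 0 collagen calls against f/+ and 0 against +/+, with Col12a1 at 0.030, Col6a1 at 0.15 and Col6a5 at 0.27. Leaving out those highest in acinar markers (KO replicate 1, WT replicate 2) gave 1892 calls, with 1 collagen gene against WT, 0 against f/+ and 0 against +/+, and Col4a1 at 0.037, Col4a5 at 0.066, Col4a6 at 0.023 and Col6a5 at 0.081. No paired analysis was possible because the replicate numbers were given in order of listing and pair no tumours.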
